A study of Homo sapiens with 9 samples.

Results

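The core circadian clock genes PER1, PER2, PER3, CRY1, CRY2, BMAL1, CLOCK, NR1D1, NR1D2 and DBP were followed by RNA sequencing in LN229 cells, an established line from a human glioblastoma. They are 10 of the 23727 genes of the count table, found by their gene symbols, and all 10 were among the 15273 genes with enough counts to be tested. BMAL1 is called ARNTL in older annotation.

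In the mammalian clock, CLOCK and BMAL1 form a dimer that binds E-box sequences and switches on the PER and CRY genes, whose proteins return to the nucleus and repress that dimer. The same dimer switches on NR1D1 and NR1D2, which encode the REV-ERB alpha and beta nuclear receptors, repressors that bind RORE sequences and lower BMAL1 transcription. DBP, an output of the loop, encodes a PAR bZIP transcription factor that binds D-box sequences, including those of PER genes.

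The labels name no genetic change made in the cells, and the medium of all 3 groups held 10% fetal bovine serum, with glucose at 17 mM and glutamine at 2 mM. The groups were untreated cells at 0 h, cells given 500 µM sodium formate for 8 h and cells given the same dose for 24 h, with 3 libraries each. Formate, the conjugate base of formic acid, feeds single-carbon units into folate metabolism. Untreated cells were taken at 0 h only, so formate and time in culture cannot be told apart. A synchronizing step is not given in the labels, and 0, 8 and 24 h sample few points of a daily cycle. LN229 is a single tumour-derived line. Nothing in the labels says that the replicates were separate cultures, so the p-values measure the spread between these libraries.

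Each library held 22222298 to 25848242 counts, and the 10 clock genes together took between 0.0194% and 0.0310% of them. The lowest share was that of untreated replicate 1, which stood apart from the other untreated libraries. Its chi-square per degree of freedom over genes was 56.1 and 58.7 against replicates 2 and 3, and 8.51 between those. Replicate 1 also stood further off in the formate groups, though less so. The values were 21.8 and 23.1 at 8 h, with 10.7 between replicates 2 and 3, and 13.7 and 24.2 at 24 h, with 8.82 between them. Member counts per library ran from 90 to 2299, and 3 counts correspond to between 0.116 and 0.141 CPM, the count relative to the size of its library. Of the glial markers, S100B, SOX2, NES, VIM, CD44 and OLIG2 stood at 6.59 CPM or above in every library. GFAP was lower, at 0.13 to 0.43 CPM, as was SOX9, at 0.42 to 1.16 CPM. Markers of immune, endothelial and epithelial cells (PTPRC, CD68, PECAM1, EPCAM) stayed at or below 0.133 CPM, with EPCAM at 0 in all untreated libraries, and MOG stood at 0.26 to 0.82 CPM.

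Promoter windows of the members were searched for the sequence elements of the loop, and parts of them are shown here: at length for NR1D2, NR1D1, PER3 and PER1, and as short sites for the others that held a motif. Sequences are those of RefSeq on GRCh38.p14, printed in the direction of the gene, with a motif in capitals. The 10 symbols matched 15 start sites, and each window of 300 bases held 250 before the start and 50 from it on. Motifs were searched on both strands: the E-box CACGTG, the variant CACGTT (printed as AACGTG where it lies on the other strand), the D-box TTATGTAA or TTACGTAA, the RORE core TAGGTCA or TGGGTCA, and the cAMP element TGACGTCA. No letters of one motif overlap another in the runs shown. A match is a description of letters and not a binding site shown by these data. Positions below count from the first transcribed base, at 0.

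NR1D2 had the densest window, at its downstream RefSeq start: a D-box read as TTACATAA, an E-box, a RORE core read as TGACCCA, and another E-box, in that order (chr3:23945871-23946120, plus strand). NR1D1 had a single CACGTT variant at -168, and only the part of its window outside annotated exons is printed (chr17:40100726-40100839, minus strand). PER3 held a D-box at -177 (chr1:7784041-7784290, plus strand), and PER1 an E-box at -173 (chr17:8152436-8152654, minus strand).
NR1D2: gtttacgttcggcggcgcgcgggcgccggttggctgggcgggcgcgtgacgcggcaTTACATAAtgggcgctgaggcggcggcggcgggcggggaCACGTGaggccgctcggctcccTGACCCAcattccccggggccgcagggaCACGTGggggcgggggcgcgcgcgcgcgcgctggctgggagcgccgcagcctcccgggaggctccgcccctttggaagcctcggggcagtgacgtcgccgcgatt
NR1D1: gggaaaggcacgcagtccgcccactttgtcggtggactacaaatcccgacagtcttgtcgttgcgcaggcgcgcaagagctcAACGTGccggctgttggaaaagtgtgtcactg
PER3: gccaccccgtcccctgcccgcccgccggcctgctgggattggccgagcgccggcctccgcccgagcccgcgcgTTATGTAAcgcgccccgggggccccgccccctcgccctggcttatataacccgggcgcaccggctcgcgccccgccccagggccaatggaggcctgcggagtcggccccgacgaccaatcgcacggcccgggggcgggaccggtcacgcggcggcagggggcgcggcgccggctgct
PER1: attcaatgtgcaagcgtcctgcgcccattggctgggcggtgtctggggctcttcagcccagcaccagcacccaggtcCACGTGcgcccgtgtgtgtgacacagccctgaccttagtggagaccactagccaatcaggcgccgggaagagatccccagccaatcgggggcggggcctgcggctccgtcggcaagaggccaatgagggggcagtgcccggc

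Short sites stand for 5 more members. PER2 had a CACGTT variant at -197 (chr2:238288791-238288818, minus strand) and a D-box across its start (chr2:238288595-238288624, minus strand). CRY1 (chr12:107093622-107093649, minus strand), CRY2 (chr11:45847276-45847303, plus strand) and CLOCK (chr4:55546103-55546130, minus strand) had the variant at -89, -188 and -187. Annotated exons of GENCODE cover 100% of the CRY1 window before the start, so the CRY1 site is exonic in that annotation. BMAL1 had a RORE core 30 bases after its start (chr11:13277809-13277837, plus strand).
PER2 variant E-box: gcgcgcgcggtCACGTTttccactatgt
PER2 D-box: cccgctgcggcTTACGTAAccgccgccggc
CRY1 variant E-box: cacacttcagaAACGTGaggtgccggtg
CRY2 variant E-box: cacatggtaggAACGTGagggggcgggc
CLOCK variant E-box: caccactcgggCACGTTtggagcagcgc
BMAL1 RORE core: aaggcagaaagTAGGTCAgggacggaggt

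The D-box was found in windows of 3 of the 10 members (PER2, PER3 and NR1D2) and in 1.01% of 35116 RefSeq windows. CACGTT was found in 5 members (PER2, CRY1, CRY2, CLOCK and NR1D1) and in 5.34% of windows, CACGTG in 2 (PER1 and NR1D2) and in 7.26%, and the RORE core in 4 (CRY2, BMAL1, CLOCK and NR1D2) and in 5.69%. The cAMP element was found in no member window and in 1.85% of all windows. Members are counted here as genes and the shares as windows. Of the 15 member windows, 3 held the D-box, 5 CACGTT, 2 CACGTG and 4 the RORE core. These windows are short, and some members have more than a single start, so elements farther away were not searched. In DBP no motif was found.

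After 24 h of formate, both REV-ERB genes were higher than at 0 h. NR1D1 rose 1.89-fold and NR1D2 1.82-fold. PER3 was higher and PER2 and CRY1 were lower, and these 3 passed the test when the replicate number was a block. The labels do not state that the replicate numbers pair the libraries. PER1, CRY2, BMAL1, CLOCK and DBP passed in neither fit. After 8 h no clock gene passed. Values are CPM scaled with TMM factors, and tests are the quasi-likelihood test of edgeR, with p adjusted over 15273 genes by the Benjamini-Hochberg method and a threshold of 0.05.

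NR1D2 (ENSG00000174738, chromosome 3, 23945260 to 23980618, plus strand on GRCh38) encodes REV-ERB beta. It stood at 27.7, 44.8 and 34.0 CPM at 0 h, at 34.1, 44.1 and 34.8 CPM at 8 h, and at 64.9, 66.2 and 62.9 CPM at 24 h, in replicates 1, 2 and 3. All libraries of 24 h were higher than all others, which overlapped each other, and the replicates of 24 h lay close together. The 24 h against 0 h log2 fold change was 0.86 (SE 0.16, adjusted p = 0.0253 by edgeR) and 0.89 with the replicate block (SE 0.11, adjusted p = 0.000465). NR1D2 was past the threshold in 7 of the 9 edgeR fits that left out 1 library. It missed it without replicate 2 of 24 h (adjusted p = 0.121) and without replicate 3 of 24 h (adjusted p = 0.116). With the block it was past the threshold in all 9 such fits.

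NR1D1 (ENSG00000126368, chromosome 17, 40092787 to 40100725, minus strand) encodes REV-ERB alpha. Its levels were 5.89, 8.70 and 5.44 CPM at 0 h, 6.76, 10.1 and 5.66 CPM at 8 h, and 11.8, 13.3 and 13.0 CPM at 24 h. Replicate 2 was the highest in every group, and no library of 24 h overlapped the others. At 24 h against 0 h the log2 fold change was 0.92 (SE 0.23, adjusted p = 0.0442 by edgeR), and with the replicate block it was 0.95 (SE 0.15, adjusted p = 0.00145). Without the block, NR1D1 was past the threshold in 2 of the 9 edgeR fits that left out 1 library, those without untreated replicate 2 (adjusted p = 0.0303) and without replicate 2 of 8 h (adjusted p = 0.0408). The other 7 fits gave adjusted p from 0.0511 without replicate 1 of 8 h to 0.175 without replicate 3 of 24 h. With the block NR1D1 was past it in all 9.

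Part of the exons of NR1D1, 9.49%, is overlapped on the opposite strand by THRA, the gene of thyroid hormone receptor alpha. The strand setting of the counts is not given in the sources used here. THRA stood at 27.8 ± 5.81 CPM at 0 h and 39.7 ± 2.18 CPM at 24 h (mean ± SD, n = 3), with a log2 fold change of 0.51 (SE 0.14, adjusted p = 0.0625 by edgeR and 0.00447 with the block). Its part in the NR1D1 counts was not tested.

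**Figure D1:**
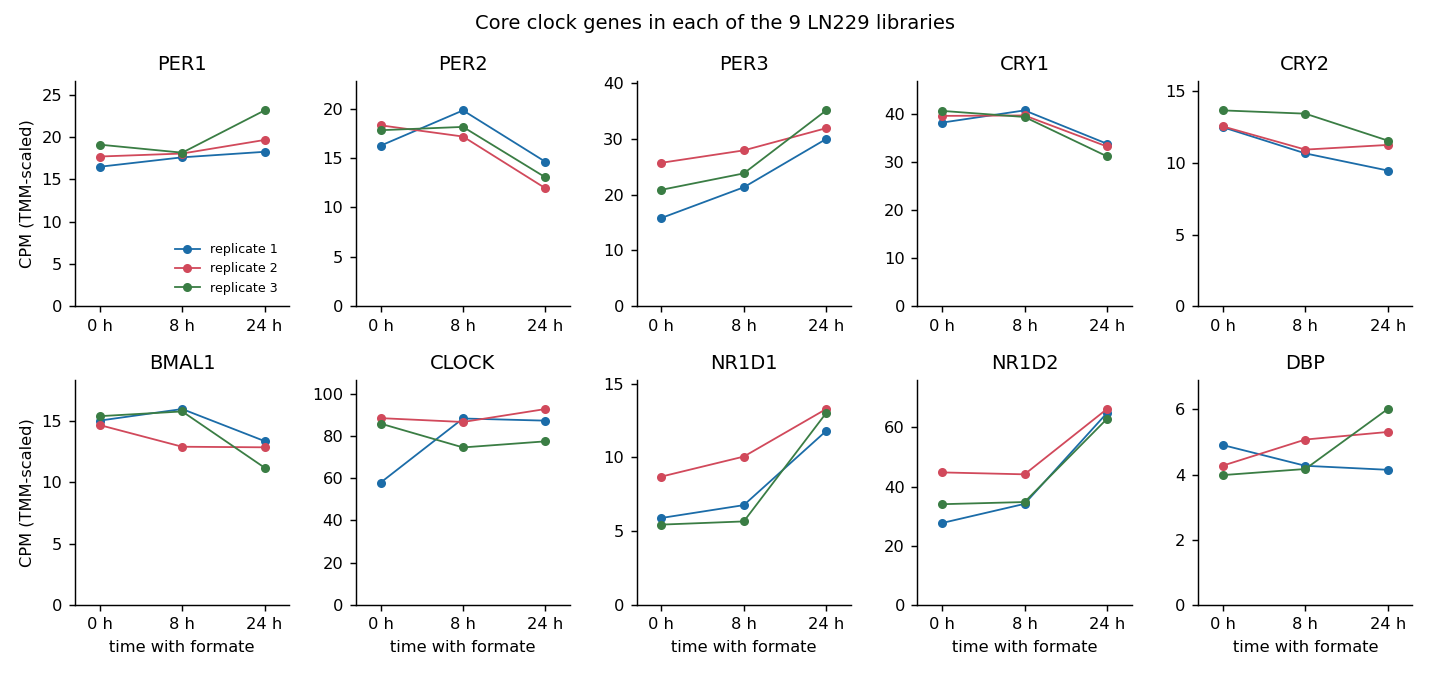
CPM of each of the 10 clock genes in every library against the time with formate, with a point for each library and a line joining the libraries of 1 replicate number. Each panel has its own vertical axis, which starts at 0. NR1D1, NR1D2 and PER3 at 24 h lie above all untreated libraries and PER2, CRY1, CRY2 and BMAL1 below them, whereas 0 h and 8 h overlap in every panel. Of all tested genes, 30.3% had no overlap between 24 h and 0 h.

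Among the period genes, whose products form the repressor complex with the cryptochromes, the 3 members took different courses. PER3 (ENSG00000049246, chromosome 1, 7784320 to 7845177, plus strand) stood at 15.8, 25.7 and 20.8 CPM at 0 h, 21.3, 27.9 and 23.8 CPM at 8 h, and 29.9, 31.9 and 35.1 CPM at 24 h. Every library of 24 h was above every other library, and replicate 1 of 0 h was the lowest of all. The log2 fold change of PER3 at 24 h against 0 h was 0.63 (SE 0.17), with adjusted p = 0.0537 by edgeR without the block and 0.00233 with it. With the block PER3 was past the threshold in all 9 fits that left out 1 library, and DESeq2 gave adjusted p = 0.0121. UTS2 and a further transcript on the opposite strand, neither found in the count table, overlap 16.7% of the PER3 exons.

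PER2 (ENSG00000132326, chromosome 2, 238244038 to 238290102, minus strand) went the other way. It stood at 16.3, 18.3 and 17.8 CPM at 0 h, 19.8, 17.2 and 18.2 CPM at 8 h, and 14.6, 11.95 and 13.1 CPM at 24 h, and the libraries of 24 h were the lowest of the 9. The log2 fold change at 24 h against 0 h was -0.40 (SE 0.12, adjusted p = 0.0710 by edgeR), and with the block it was -0.41 (SE 0.11, adjusted p = 0.0202). The block fit of PER2 missed the threshold without untreated replicate 2 (adjusted p = 0.129), replicate 2 of 24 h (0.100) or replicate 3 of 24 h (0.0705), and passed it in the other 6.

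PER1 (ENSG00000179094, chromosome 17, 8140472 to 8156506, minus strand) overlapped between 0 h and both formate groups. Its levels were 16.5, 17.7 and 19.1 CPM at 0 h, 17.6, 18.1 and 18.2 CPM at 8 h, and 18.3, 19.7 and 23.2 CPM at 24 h. The log2 fold change of PER1 at 24 h against 0 h was 0.20 (SE 0.12, adjusted p = 0.293 by edgeR, 0.153 with the block).

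The ratio of PER3 to PER2 within a library, which does not depend on library scaling, was 0.971, 1.40 and 1.17 at 0 h. It was 1.07, 1.62 and 1.31 at 8 h, and 2.05, 2.67 and 2.69 at 24 h. The lowest ratio at 24 h was above the highest of the other libraries. This pair was chosen after the values were seen, so the ratio is a description without a test.

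CRY1 and CRY2 encode the cryptochromes, the main repressors of the CLOCK and BMAL1 dimer. CRY1 (ENSG00000008405, chromosome 12, 106991364 to 107093829, minus strand) stood at 38.2, 39.6 and 40.6 CPM at 0 h, 40.7, 39.7 and 39.4 CPM at 8 h, and 33.8, 33.2 and 31.2 CPM at 24 h. The libraries of 0 h and 8 h lay within a narrow range and those of 24 h below it. The log2 fold change at 24 h against 0 h was -0.27 (SE 0.09, adjusted p = 0.0891 by edgeR), and with the block it was -0.27 (SE 0.08, adjusted p = 0.0350). With the block CRY1 was past the threshold in 2 of the 9 fits that left out 1 library, those without untreated replicate 1 (adjusted p = 0.00624) and without replicate 1 of 8 h (adjusted p = 0.0431). The other 7 gave adjusted p from 0.0598 without replicate 1 of 24 h to 0.135 without replicate 3 of 24 h.

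CRY2 (ENSG00000121671, chromosome 11, 45847118 to 45883248, plus strand) stood at 12.5, 12.6 and 13.7 CPM at 0 h, 10.7, 10.9 and 13.4 CPM at 8 h, and 9.47, 11.3 and 11.6 CPM at 24 h. The libraries of 24 h lay below those of 0 h and overlapped those of 8 h. Its log2 fold change at 24 h against 0 h was -0.26 (SE 0.14, adjusted p = 0.237 by edgeR, 0.0933 with the block).

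The activator genes BMAL1 and CLOCK passed in neither fit. BMAL1 (ENSG00000133794, chromosome 11, 13276652 to 13387266, plus strand) stood at 15.0, 14.7 and 15.4 CPM at 0 h, 16.0, 12.9 and 15.8 CPM at 8 h, and 13.4, 12.9 and 11.2 CPM at 24 h. All libraries of 24 h were below those of 0 h, with a log2 fold change of -0.27 (SE 0.12, adjusted p = 0.194 by edgeR, 0.102 with the block). BMAL1 is a known target of REV-ERB repression, and a link between its level and those of NR1D1 and NR1D2 was not tested.

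CLOCK (ENSG00000134852, chromosome 4, 55427903 to 55547138, minus strand) stood at 57.9, 88.5 and 85.9 CPM at 0 h, 88.4, 86.7 and 74.6 CPM at 8 h, and 87.3, 92.8 and 77.5 CPM at 24 h. Untreated replicate 1 was the only library below 70 CPM. The log2 fold change of CLOCK at 24 h against 0 h was 0.15 (SE 0.15, adjusted p = 0.544 by edgeR), and it was -0.04 without that library (adjusted p = 0.870).

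DBP (ENSG00000105516, chromosome 19, 48630030 to 48637438, minus strand) had the lowest level of the members. It stood at 4.90, 4.27 and 3.98 CPM at 0 h, 4.27, 5.07 and 4.17 CPM at 8 h, and 4.14, 5.31 and 6.01 CPM at 24 h, and the 3 groups overlapped. Its log2 fold change at 24 h against 0 h was 0.23 (SE 0.18, adjusted p = 0.424 by edgeR, 0.351 with the block). SPHK2, a sphingosine kinase gene on the opposite strand, overlaps 10.1% of the DBP exons and stood at 30.6 ± 1.04 CPM at 0 h and 28.0 ± 1.20 CPM at 24 h (SD, n = 3).

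As a group, 2 of the 10 members were called higher and 0 lower at 24 h against 0 h, where 4.25% of all tested genes were called (2.47% higher and 1.77% lower). With the replicate block, 3 were called higher and 2 lower, against 24.1% of all tested genes (12.6% higher and 11.6% lower). Without overlap between the replicates, 3 members were higher (PER3, NR1D1, NR1D2) and 4 lower (PER2, CRY1, CRY2, BMAL1), where 30.3% of tested genes had no overlap (15.9% higher and 14.4% lower). The median log2 fold change was 0.17 over the members and 0.01 over all tested genes. With replicate 1 of every group left out, a choice made after the data were seen, 5 members were called (NR1D1, NR1D2 and PER3 higher, PER2 and CRY1 lower), where 16.9% of tested genes were called, with NR1D1 at 0.89 (adjusted p = 0.0381) and NR1D2 at 0.71 (adjusted p = 0.00611). RNA from dishes of cells was pooled in each library, so fewer cells expressing a gene and less RNA per cell cannot be told apart.

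**Figure D2:**
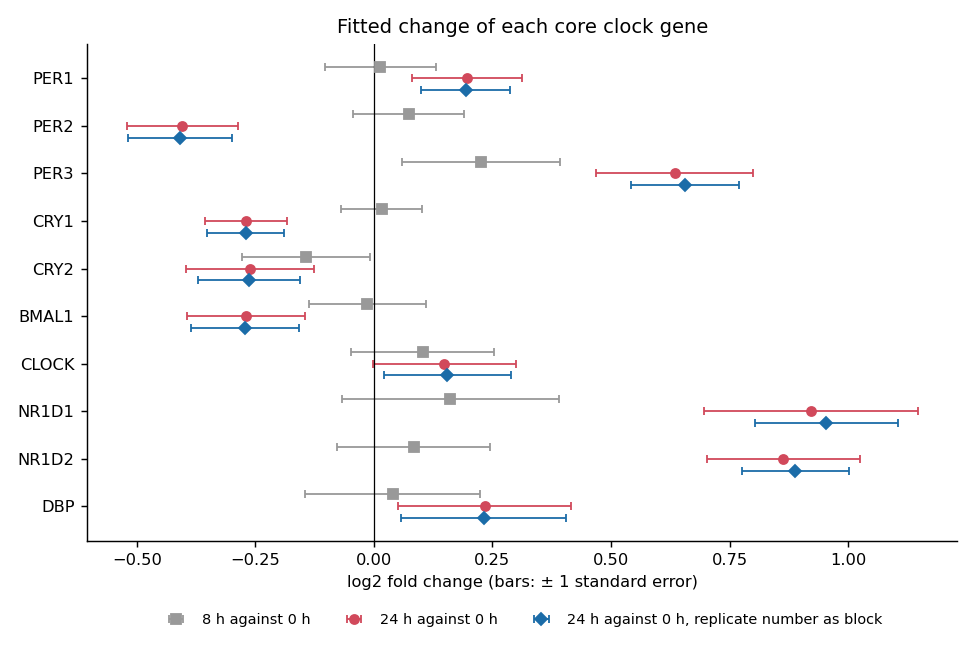
Fitted log2 fold change of each clock gene at 8 h against 0 h and, without and with the replicate block, at 24 h against 0 h. Bars are 1 standard error on each side. At 24 h against 0 h NR1D1 and NR1D2 lie highest, at 0.92 and 0.86, and PER2 lowest, at -0.40, whereas the 8 h against 0 h values lie between -0.14 and 0.23.

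At 24 h against 0 h the direction was the same in every pair of same-numbered libraries for 8 of the 10 members. The share of all tested genes that did so was not counted, so this is a description of the members only. On the log2 CPM scale, the differences between 24 h and 0 h for replicates 1, 2 and 3 were 0.99, 0.61 and 1.24 for NR1D1. For NR1D2 they were 1.23, 0.56 and 0.88, and for PER3 0.92, 0.31 and 0.75. Replicate 2 had the smallest difference in these 3 genes. It had the largest for PER2, whose differences were -0.15, -0.61 and -0.45. CRY1 differed by -0.18, -0.25 and -0.38. CLOCK (0.59, 0.07 and -0.15) and DBP (-0.24, 0.31 and 0.58) differed in sign between replicates.

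After 8 h of formate, 0 of the 10 clock genes differed from 0 h by edgeR, with or without the block. By edgeR in both fits and by DESeq2, 0 of them had an unadjusted p under 0.05, and DESeq2 called 0. Over all genes 0% were called, 79 of 15273 (0.517%, and 1.01% with the block) had an unadjusted p under 0.05 by edgeR, and DESeq2 had 0 calls and 37 genes under that unadjusted p. Log2 fold changes lay between -0.14 for CRY2 and 0.23 for PER3, and the replicates of both groups overlapped in all 10 genes, where 3.31% of tested genes had no overlap. PER3 was higher in each replicate pair at 8 h, by 0.43, 0.12 and 0.19 on the log2 CPM scale. So was NR1D1, by 0.196, 0.207 and 0.055, whereas CRY2 was lower in each (-0.226, -0.198 and -0.024). The other members differed in sign between replicates, and the share of all tested genes with 1 direction was not counted. The unadjusted p of PER3 by edgeR was 0.20, and 0.064 with the block.

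Between 8 h and 24 h of formate, NR1D2 rose and PER2 fell. This comparison shares its 24 h libraries with that against 0 h. NR1D2 differed by a log2 fold change of 0.78 (SE 0.16, adjusted p = 0.0278 by edgeR) and PER2 by -0.48 (SE 0.12, adjusted p = 0.0456). They made 1 call higher and 1 lower, where 4.56% of tested genes were called (2.84% higher and 1.72% lower). NR1D1 (0.76, adjusted p = 0.0751), PER3 (0.41, 0.168) and CRY1 (-0.29, 0.0794) did not pass, though their replicates did not overlap. The 24 h and 8 h libraries did not overlap in 6 members (PER1, PER3, NR1D1 and NR1D2 higher, PER2 and CRY1 lower), where 34.3% of tested genes had no overlap (18.2% higher and 16.2% lower). Both calls changed when single libraries were left out. NR1D2 was past the threshold in 5 of the 9 edgeR fits that left out 1 library and PER2 in 2. NR1D2 missed it without replicate 2 or 3 of 24 h (adjusted p = 0.126 and 0.141) and without replicate 1 or 3 of 8 h (0.158 and 0.0914), and PER2 passed only without untreated replicate 1 (0.0133) or replicate 1 of 24 h (0.0335).

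Asked for any difference among the 3 groups, the edgeR F test called 1 member, NR1D2 (adjusted p = 0.0271), where 3.64% of tested genes were called. With the block it called 5 (NR1D1, NR1D2, PER2, PER3 and CRY1), where 19.6% of tested genes were called. That result holds only if the numbers pair the libraries of all 3 groups, which the labels do not state.

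Levels per kilobase of exon allow the members to be ordered. At 0 h CRY1 led with 7.80 ± 0.241 CPM per kb (SD, n = 3), followed by CLOCK at 6.59 ± 1.44 and NR1D2 at 6.10 ± 1.49. The libraries of CLOCK lay below those of CRY1, and those of NR1D2 overlapped both. PER3, PER2, PER1, NR1D1, BMAL1 and CRY2 followed between 2.56 and 2.08 CPM per kb, each overlapping the next, and DBP was last at 0.670 ± 0.0719. At 8 h the leading 3 and the last 3 places were held by the same genes, with CRY1 at 7.89, CLOCK at 7.08 and NR1D2 at 6.47 CPM per kb. At 24 h NR1D2 led with 11.1 ± 0.289 CPM per kb and did not overlap CLOCK at 7.30 ± 0.660. CRY1 followed at 6.47 ± 0.272, overlapping CLOCK. NR1D1 had moved from the seventh place to the fourth, at 4.58 ± 0.286, overlapping PER3 at 3.99 ± 0.320. PER1 stood at 2.91 ± 0.360 and PER2 at 1.92 ± 0.196 without overlap, and PER2, BMAL1 and CRY2 overlapped in a row down to 1.74. DBP stayed last at 0.788 ± 0.144.

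**Figure D3:**
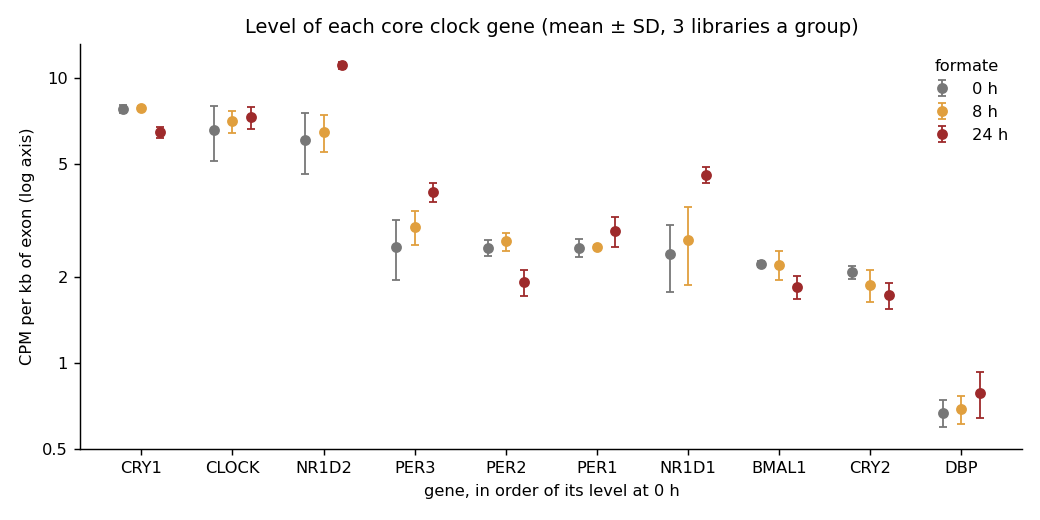
Level of each clock gene in CPM per kilobase of exon at 0, 8 and 24 h of formate, on a log axis, with the mean of 3 libraries as a point and the SD as its bar. Genes stand in the order of their level at 0 h. NR1D2 moves from the third place at 0 h (6.10) to the first at 24 h (11.1), and DBP stays below 1 CPM per kb throughout.

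The levels of NR1D2 and CRY1 were also set against each other within each library, in CPM. The ratio of NR1D2 to CRY1 was 0.725, 1.13 and 0.838 at 0 h and 0.838, 1.11 and 0.883 at 8 h. At 24 h it was 1.92, 1.99 and 2.02, with an SD of 0.0508 against 0.210 at 0 h. The 3 libraries of 24 h were thus nearly equal and all above the rest. This pair too was chosen after the values were seen.

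**Figure D4:**
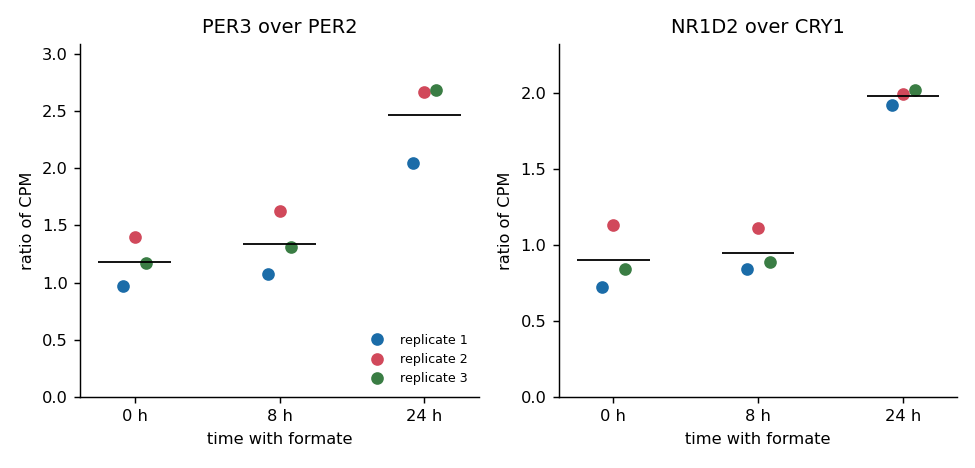
Ratio of PER3 to PER2 and of NR1D2 to CRY1 within each library, by time with formate, with a point for each replicate and a line at the group mean. The axes start at 0. Both ratios at 24 h (2.05 to 2.69 and 1.92 to 2.02) lie above every library of 0 h and 8 h.

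For each member, the gene outside the lists whose log2 CPM followed it most closely over the 9 libraries is given as a description, from 10791 candidates with a mean of at least 5 CPM. It was CLMN for NR1D2 (Pearson r = 0.986), CHRDL1 for NR1D1 (0.970), KLHL8 for PER3 (0.986), NBPF1 for PER2 (0.982), NCKAP5L for PER1 (0.971), KIF18A for CRY1 (0.986), RBM7 for CRY2 (0.919), MIR22HG for BMAL1 (0.957), RB1 for CLOCK (0.997) and FAHD2B for DBP (0.933). The points share the library preparation, and the highest of so many candidates is high by selection. For CLOCK, untreated replicate 1 stood apart at 57.9 CPM, and r was not computed without that library.

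Genes around the core loop were read from 5 lists with 43 entries, of which 39 were tested. Their counts at 24 h against 0 h stand beside 4.25% of all tested genes called without the block, 24.1% with it, and 26.4% under an unadjusted p of 0.05 without it. Among the activators and ROR receptors (3 tested), 0 were called by edgeR without the block, with 1 under an unadjusted p of 0.05, and BMAL2 fell with the block and by DESeq2. BMAL2, a paralog of BMAL1, stood at 40.8 ± 15.2 CPM at 0 h and 20.8 ± 3.64 CPM at 24 h (SD, n = 3). Its log2 fold change was -0.97 (SE 0.27, adjusted p = 0.0638 by edgeR and 0.000795 with the block).

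A list of 8 genes held D-box factors (TEF, HLF, NFIL3), repressors of E-box activity (BHLHE40, BHLHE41, CIART) and the replication fork genes TIMELESS and TIPIN. Of these BHLHE40 rose, and TEF rose with the block only. BHLHE40, which encodes the E-box repressor DEC1, stood at 60.9, 73.4 and 80.7 CPM at 0 h and 100.2, 101 and 107 CPM at 24 h. The libraries of 24 h lay above all untreated ones. Its log2 fold change was 0.52 (SE 0.13, adjusted p = 0.0425 by edgeR and 0.00185 with the block). The call held without the block in 2 of the 9 fits that left out 1 library, without untreated replicate 3 (adjusted p = 0.0492) and without replicate 1 of 8 h (0.0378), and in all 9 with it. TEF, a paralog of DBP that binds the same D-box, stood at 30.5 ± 7.36 CPM at 0 h and 40.0 ± 1.68 CPM at 24 h (log2 fold change 0.39, adjusted p = 0.187 by edgeR and 0.0337 with the block). With the block TEF was past the threshold in 3 of the 9 fits that left out 1 library, and the other 6 gave adjusted p up to 0.164, without replicate 3 of 24 h. The remaining 6 genes of the list were not called in either fit.

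Kinases and ubiquitin ligases that act on clock proteins were listed together with the deubiquitinase USP2. Of these, 0 of 10 genes were called in either fit, with log2 fold changes from -0.13 to 0.68. The upper end was USP2, which had few counts (0.48 CPM at 0 h and 0.78 CPM at 24 h). PRKAA1 came next, at 0.27. At an unadjusted p under 0.05 there were 0 of the 10 by edgeR without the block and 2 with it, where 26.4% and 38.3% of tested genes had one. DESeq2 called 0 and had 0 under that unadjusted p.

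Of the 7 output genes, 0 were called by edgeR without the block or by DESeq2, with 3 under an unadjusted p of 0.05 by each tool. With the block KLF9 and PPARA rose and NOCT fell. KLF9, a zinc finger factor induced by glucocorticoids, stood at 100.4, 227 and 195 CPM at 0 h and 281, 294 and 323 CPM at 24 h. Its log2 fold change was 0.78 (adjusted p = 0.127 by edgeR and 0.00430 with the block). PPARA, a fatty acid receptor of the nuclear receptor family, stood at 22.9 ± 5.80 and 32.0 ± 4.0 CPM (0.48, adjusted p = 0.146 and 0.00905). NOCT, whose product nocturnin acts on NADP cofactors, stood at 16.2 ± 1.27 and 12.7 ± 1.07 CPM (-0.35, adjusted p = 0.117 and 0.0200). The block fits that left out 1 library kept KLF9 past the threshold in 9 of 9, PPARA in 8 (0.0519 without replicate 3 of 24 h) and NOCT in 5 (up to 0.0924, without untreated replicate 2).

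Of the 11 tested genes of the cAMP and glucocorticoid responses, through which outside signals reset the clock, 0 were called by edgeR without the block, with 8 under an unadjusted p of 0.05, and 1 (SGK1) by DESeq2. With the block 5 rose, SGK1, FOS and FKBP5 among them, and CREM fell, where 24.1% of tested genes were called. The list's median log2 fold change was 0.38, where that of all tested genes was 0.01. SGK1, a kinase gene induced by glucocorticoids, stood at 38.1 ± 1.77 CPM at 0 h and 56.5 ± 13.5 CPM at 24 h (log2 fold change 0.57, adjusted p = 0.0560 by edgeR and 0.00970 with the block). CREM, a cAMP response modulator, stood at 14.9 ± 1.25 and 11.5 ± 1.25 CPM (-0.37, adjusted p = 0.120 and 0.0422). In the 9 block fits that left out 1 library, SGK1 and FOS were past the threshold in 7, CREM in 1 and FKBP5 in 0. SGK1 missed it without replicate 2 or 3 of 24 h (adjusted p = 0.0591 and 0.0549), and FOS without replicate 1 or 2 of 24 h (0.0765 and 0.0555).

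**Figure D5:**
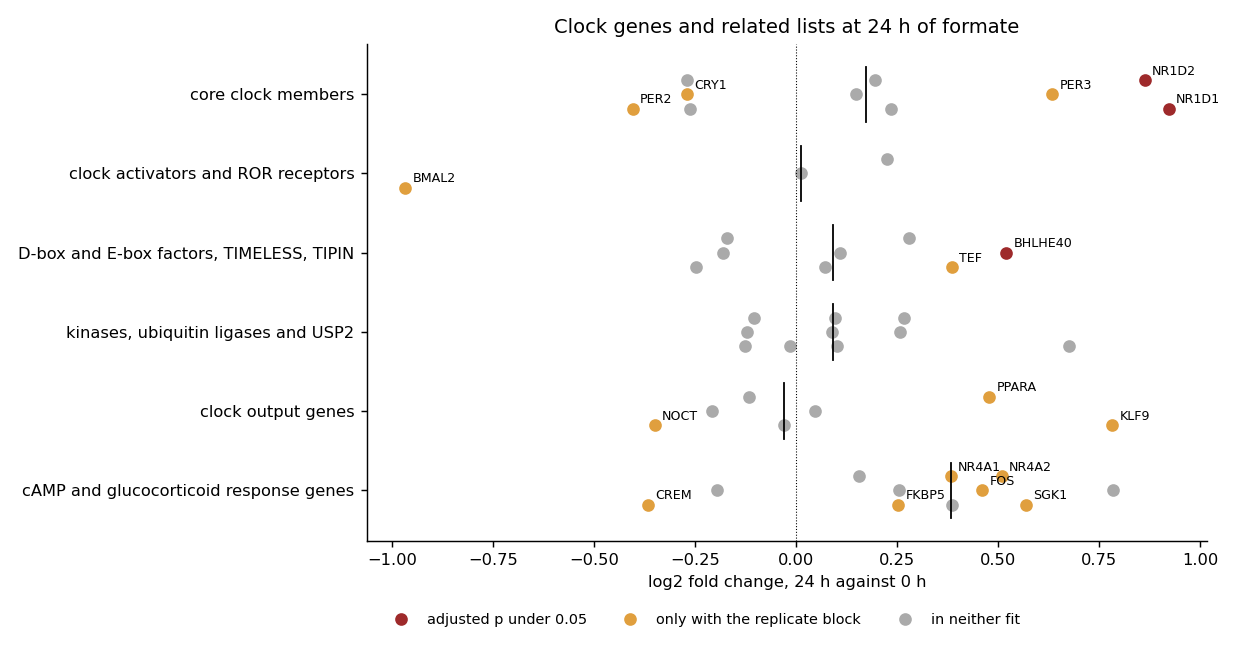
Fitted log2 fold change at 24 h against 0 h of the tested genes in the core clock and in the 5 related lists, with each gene a point and the list median a line. Colours mark the genes past an adjusted p of 0.05 without the block, with the block only and in neither fit, and names are given for those past it with the block. The core members run from -0.40 to 0.92. The kinases, ligases and USP2 run from -0.13 to 0.68, the upper end being USP2, a gene with few counts. The cAMP and glucocorticoid response genes have the highest median, 0.38.

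Other features moved with the difference between 24 h and 0 h. S100B rose, from 130 ± 46.2 to 340 ± 53.6 CPM (SD, n = 3, log2 fold change 1.38, adjusted p = 0.0460 by edgeR and 0.000507 with the block). OLIG2 rose (0.52, adjusted p = 0.0303) and CD44 (-0.38, adjusted p = 0.00690) and VIM (-0.46, adjusted p = 0.00858) fell by edgeR with the block only. Of the 7 glial markers tested, 1 was thus called without the block and 4 with it. Of all tested genes, 4.25% and 24.1% were called. SOX2 (log2 fold change -0.20), SOX9 (0.34) and NES (0.02) passed in neither fit. With the block S100B, CD44 and VIM were past the threshold in all 9 fits that left out 1 library and OLIG2 in 4. The share of counts in the 50 most abundant genes was 11.1% to 12.7% at 0 h and 10.5% to 10.98% at 24 h. Their part in the clock results was not tested.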

How the data were processed

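The authors deposited 1 table of raw counts per Ensembl gene for the 9 libraries. Per the labels' protocols, RNA with an integrity number above 9 entered a stranded mRNA kit. Per the submitters' processing notes, bcl2fastq 2.20.0.422, STAR 2.7.4a and GRCh38 were used. The counting program, annotation release and strand setting are not given in the sources used here. A source label spells the cell line differently, and the growth protocol's LN229 was used.

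Symbols were known for 19733 of 23727 genes, and coordinates come from GENCODE 29 on GRCh38 (23252 genes). The filterByExpr function left 15273 genes, library sizes were scaled with TMM, and edgeR 4.0.16 in R 4.3.3 fitted 1 mean per group over all 9 libraries. Quasi-likelihood tests were two-sided, with Benjamini-Hochberg adjustment over all tested genes. Log2 CPM used a prior count of 2. The fit was tested on simulated data. DESeq2 1.42.0, other scalings, no filter, the 2 groups compared alone, the replicate block and leaving out each library were alternatives. Leaving out replicate 1 of every group was chosen after seeing the data.

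Replicate numbers come from the titles. Across genes, deviations of same-numbered libraries correlated with r = 0.476, 0.432 and 0.414 between 0 h and 8 h, 0.367, 0.164 and 0.251 between 0 h and 24 h, and 0.423, 0.0367 and 0.404 between 8 h and 24 h. The numbers were therefore taken to pair 0 h with 8 h. They were also used as a block at 24 h against 0 h, where the pairing was less clear. There replicate 2 of 24 h had r = 0.270 with replicate 3 of 0 h, above its 0.164 with replicate 2. The block was fitted over the libraries of all 3 groups together. Its results, also at 24 h against 0 h, hold only if the numbers pair these libraries, which the labels do not state. The biological coefficient of variation was 0.137 without the block and 0.0956 with it.

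All 10 members were named. From each related list, genes called in any comparison were named, up to 4 per list in order of p at 24 h, and for each member the gene with the highest Pearson r. The members and lists were chosen with earlier results of these data known. FBXL21P, ZBTB16 and RBFOX3 were not found under these symbols.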

Additional observations from a re-analysis of the deposited data

Results flagged for a closer look

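Of the clock genes, PER2 and NR1D2 differed between the formate time points themselves, at 24 h against 8 h, by a log2 fold change of -0.48 (adjusted p = 0.0456 by edgeR) and 0.78 (adjusted p = 0.0278). BHLHE40, which encodes an E-box repressor, differed by 0.56 between the same groups (adjusted p = 0.0334), and the glial marker S100B by 1.48 (adjusted p = 0.0382). In each of these 4 genes all libraries of 24 h lay on the same side of all libraries of 8 h, where 34.3% of all tested genes had no overlap. The 4 were picked by their calls in this comparison, so the lack of overlap adds no support. Without replicate 2 or 3 of 24 h, or without replicate 1 of 8 h, 0 of all tested genes were called. Without replicate 2 or 3 of 8 h, 0 of the 39 other clock genes, BHLHE40 among them, were called.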

How the results depend on the processing

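At 24 h against 0 h, 2 members were called, and 1 with library size scaling, 5 with DESeq2 and 0 with only the 2 groups compared. With replicate 1 of every group left out, 5 were called. With 1 library left out, 0 to 3 were called without the block and 3 to 5 with it. Genes called were 649, and 1656 with DESeq2, 124 with the 2 groups alone and 2616 without replicate 1. With 1 library left out they were 0 to 899 without the block and 2213 to 3816 with it. Other clock genes called were 1, and 0 with library size scaling, 3 with DESeq2 and 3 without a filter. They were 0 with the 2 groups alone and 5 without replicate 1. With 1 library left out they were 0 to 2 without the block and 6 to 11 with it. At 24 h against 8 h, the members called, 2, became 1 with library size scaling, 4 with DESeq2 and 5 with the 2 groups alone. They became 4 without replicate 1. With 1 library left out they were 0 to 5 without the block and 2 to 5 with it. Genes called, 696, became 1458, 1787 and 3072 with DESeq2, the 2 groups alone and without replicate 1. With 1 library left out they were 0 to 2545 without the block and 1179 to 5432 with it. Other clock genes called became 0 with library size scaling, 3 with DESeq2, 4 with the 2 groups alone and 8 without replicate 1. With 1 library left out they were 0 to 6 without the block and 4 to 16 with it. For any difference, members called, 1, became 5 with DESeq2, 2 without a filter and 4 without replicate 1. With 1 library left out they were 0 to 3 without the block and 2 to 5 with it. Genes called, 556, became 1508 with DESeq2 and 2476 without replicate 1. With 1 library left out they were 0 to 1276 without the block and 1431 to 4636 with it. Other clock genes called became 0 with library size scaling, 3 with DESeq2 and 5 without replicate 1. With 1 library left out they were 0 to 2 without the block and 4 to 14 with it. The cause was not tested. NR1D1 at 24 h against 0 h had adjusted p = 0.0505 with library size scaling and 0.0528 with the 2 groups alone, where NR1D2 had 0.0506.

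With the replicate block, members called were 5 at 24 h against 0 h, 5 at 24 h against 8 h and 5 for any difference, genes called 3687, 3130 and 2986, and other clock genes called 12, 11 and 11. Between 8 h and 24 h the replicates numbered 2 had r = 0.0367, below the 0.134 of replicate 2 of 24 h with replicate 3 of 8 h. Pairing was therefore not clear there. The block was fitted over the libraries of all 3 groups together, so every block result uses these numbers across the groups. Between 0 h and 24 h the replicates numbered 2 had 0.164, below the 0.270 of replicate 2 of 24 h with replicate 3 of 0 h. The block fits at 24 h against 0 h thus share this limit. Under the block at 24 h against 8 h, NR1D1 (adjusted p = 0.00388 by edgeR), NR1D2 (0.000778), PER3 (0.0237), CRY1 (0.0306) and PER2 were past the threshold. The block changed no call at 8 h against 0 h.

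Directions reversed for small differences. Without replicate 1 of every group, 8 h against 0 h gave PER1 -0.0224, PER2 -0.0325, CRY1 -0.021, CLOCK -0.113 and NR1D2 -0.0015, and 24 h against 0 h gave CLOCK -0.0331. With 1 library left out, with or without the block, 8 h against 0 h ran from -0.0393 to 0.0957 for PER1, -0.0467 to 0.164 for PER2, -0.0283 to 0.0725 for CRY1, -0.0799 to 0.081 for BMAL1, -0.104 to 0.287 for CLOCK, -0.110 to 0.402 for NR1D1, -0.0689 to 0.288 for NR1D2 and -0.0553 to 0.212 for DBP. CLOCK ran from -0.0731 to 0.316 at 24 h against 0 h and from -0.0476 to 0.171 at 24 h against 8 h, where DBP ran from -0.0011 to 0.353. In a fit that leaves a group with 2 libraries, the spread is pooled over the groups.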
